A study of Homo sapiens with 27 samples.

Results

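The genes described here drive human cells through DNA replication and division. They are 43 genes named by function: 23 of mitosis, 14 of DNA replication, 3 of the passage from G1 into S phase and the 3 D cyclins. All 43 had at least 1 probe among the 20046 genes that the arrays named, and the probe with the highest mean scanner signal over the 27 arrays stood for its gene. A gene was tested if that probe was detected on at least 2 arrays (scanner detection p-value below 0.01), which held for 13534 genes and for 42 of the 43. Cyclin E2 (CCNE2) was detected on 0 of 27 arrays and is not followed further. Of the others, 38 were detected on all 27 arrays, CENPA on 26, RRM2 on 24, MKI67 on 19 and CDC6 on 9.

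The cells were HuES6, an established human embryonic stem cell line, differentiated toward heart muscle in 2 time courses, and their total RNA was measured on Illumina bead arrays. The day 0 arrays are taken as the undifferentiated baseline. Differentiation was then started with FGF2 (10 ng/ml), BMP4 (1 ng/ml) and a CHIR compound (1 µM), an activator of WNT signalling, during the first 24 hours. Insulin was present on day 0 and left out from day 1. One arm of each time course then received IWP-2, which blocks the enzyme Porcupine and so the release of WNT proteins, at a dose for which the labels give no number. In time course 1 IWP-2 was present on days 2 and 3, in time course 2 on days 1 and 2, and the other arm received no inhibitor. The arm without inhibitor was measured on days 0, 1, 2, 3, 4, 5, 6 and 8 in both time courses. The IWP-2 arm was measured on days 3, 4, 5, 6 and 8 in both and also on day 2 in time course 2. Each day and arm therefore has 1 array per time course, 13 arrays in time course 1 and 14 in time course 2. The labels state that 2 arrays of time course 1 with IWP-2, those of days 3 and 6, belong to a further series as well. They do not say that the time courses were separate cultures, so the p-values rest on array-to-array spread, which may be technical.

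Between 16424 and 19784 probes were detected per array. The mean scanner signal lay between 293.1 and 349.5 except on the IWP-2 array of day 8 in time course 2, where it was 225.2. Of 9 pluripotency markers 8 had a named probe, and all 8 were detected on both day 0 arrays, with mean levels of 11.54 and 11.39. By day 8 without inhibitor those means were 6.90 and 6.62. Levels are normalized log2 intensities, differences are between such levels with their standard error (SE), and a difference was called when limma's p-value, adjusted over all 13534 genes after Benjamini and Hochberg, was below 0.05. These are bulk samples, so fewer cycling cells and less RNA per cell cannot be told apart.

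A cell entering division first loads MCM helicases onto its replication origins, activates them with CDC45 and the GINS complex, and copies its DNA on the sliding clamp PCNA while ribonucleotide reductase and thymidylate synthase supply nucleotides. Replication genes are switched on at the G1 to S transition by E2F factors, which D cyclins and cyclin E release from the retinoblastoma protein. Mitosis genes are switched on later, in G2, by FOXM1, B-MYB and the MuvB complex, which acts at a motif called the cell cycle genes homology region (CHR), often beside CCAAT boxes bound by NF-Y. Human pluripotent stem cells are known for a short G1 and high replication gene expression, and heart muscle cells for leaving the cycle as they mature.

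Promoters of these classes were searched for the motifs just named, and 5 are shown. These are 2 mitosis and 2 replication promoters that hold the motifs, and that of cyclin D3, which holds none. They were chosen after their motifs had been seen. Promoter sequence came from RefSeq (GRCh38.p14), 250 bases upstream of each gene's start, and 33 of the 43 genes had an entry. The motifs searched on both strands were TTTGAA for the CHR, CCAAT, and TTTGGCGC or TTTCCCGC for E2F, and in 1 promoter 2 motifs overlapped. The CHR letters stood in 9 of 18 mitosis promoters (50%), in 1 of 12 replication promoters (8.33%) and in 13.6% of all 27305 promoters. E2F letters stood in 2 of the 18 (11.1%), in 6 of the 12 (50%) and in 1.96% of all. CCAAT stood in 16 of 18 mitosis promoters (88.9%), 9 of 12 replication promoters (75%) and 33% of all. CHR and CCAAT together stood in 8 of the 18 (44.4%), 1 of the 12 (8.33%) and 4.85% of all. Such matches are letters in a window and do not show that a factor binds. Only 1 start was searched per gene, so motifs before any other start of a gene, CCND3 included, would be missed. Below, each sequence runs 5′ to 3′ along the gene's strand with the motifs in capitals, and a motif on the opposite strand appears as its reverse complement. Cyclin B2 (CCNB2, chr15:59104896-59105145, plus strand) and topoisomerase II alpha (TOP2A, chr17:40417897-40418146, minus strand) stand for mitosis, with 1 and 2 CHR matches and 4 CCAAT matches each. The helicase subunit MCM6 (chr2:135876444-135876693, minus strand) and the clamp PCNA (chr20:5126623-5126872, minus strand) stand for replication, with 2 and 1 E2F matches, and cyclin D3 (CCND3, chr6:42048689-42048938, minus strand) holds none of the motifs.
CCNB2: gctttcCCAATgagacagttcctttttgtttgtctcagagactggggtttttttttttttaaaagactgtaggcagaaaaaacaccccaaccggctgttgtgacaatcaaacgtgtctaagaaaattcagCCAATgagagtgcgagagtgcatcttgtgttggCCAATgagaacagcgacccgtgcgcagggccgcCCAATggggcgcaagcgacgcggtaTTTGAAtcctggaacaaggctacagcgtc
TOP2A: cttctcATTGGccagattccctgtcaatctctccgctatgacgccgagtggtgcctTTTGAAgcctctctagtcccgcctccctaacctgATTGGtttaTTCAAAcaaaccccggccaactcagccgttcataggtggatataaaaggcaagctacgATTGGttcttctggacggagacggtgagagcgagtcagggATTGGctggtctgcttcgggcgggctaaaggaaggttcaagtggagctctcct
MCM6: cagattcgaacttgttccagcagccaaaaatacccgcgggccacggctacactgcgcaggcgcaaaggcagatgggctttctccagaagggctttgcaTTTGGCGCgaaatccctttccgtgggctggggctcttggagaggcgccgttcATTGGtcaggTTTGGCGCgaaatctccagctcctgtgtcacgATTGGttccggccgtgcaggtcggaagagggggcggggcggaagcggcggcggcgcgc
PCNA: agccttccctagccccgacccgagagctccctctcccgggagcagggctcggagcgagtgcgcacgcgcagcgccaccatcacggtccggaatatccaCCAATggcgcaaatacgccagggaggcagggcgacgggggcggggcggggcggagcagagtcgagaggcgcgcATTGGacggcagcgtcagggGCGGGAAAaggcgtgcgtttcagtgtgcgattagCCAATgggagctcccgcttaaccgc
CCND3: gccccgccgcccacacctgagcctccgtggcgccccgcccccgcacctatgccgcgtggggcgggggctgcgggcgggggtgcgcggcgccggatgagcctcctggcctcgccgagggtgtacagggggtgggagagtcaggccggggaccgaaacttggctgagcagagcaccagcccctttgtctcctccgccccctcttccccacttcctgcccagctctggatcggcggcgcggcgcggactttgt

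The first comparisons follow the arm without inhibitor from the stem cell stage. From day 0 to day 1, 0 of the 42 genes tested passed the test, against 2.77% of all genes tested, and 0 had an unadjusted p below 0.05 in limma. From day 1 to day 2 the count was again 0, against 12% of all genes, with 1 gene at an unadjusted p below 0.05 in limma. By days 3 and 4 the mitosis genes still had a median difference from day 0 of −0.11, and 0 of 23 had passed on the probe used here. Second probes of AURKA (−0.51, adjusted p = 0.0453) and of UBE2C (−0.96, adjusted p = 0.00501, detected on 16 of 27 arrays) were called lower. Here and below, second probes come from a separate fit, adjusted over the 18435 detected probes that had 1 gene. Of the replication genes 6 of 14 had fallen, with a class median of −0.71. Over all genes the median was −0.01 and 17.2% were called lower. Whether the classes differ from each other was not tested.

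**Figure D1:**
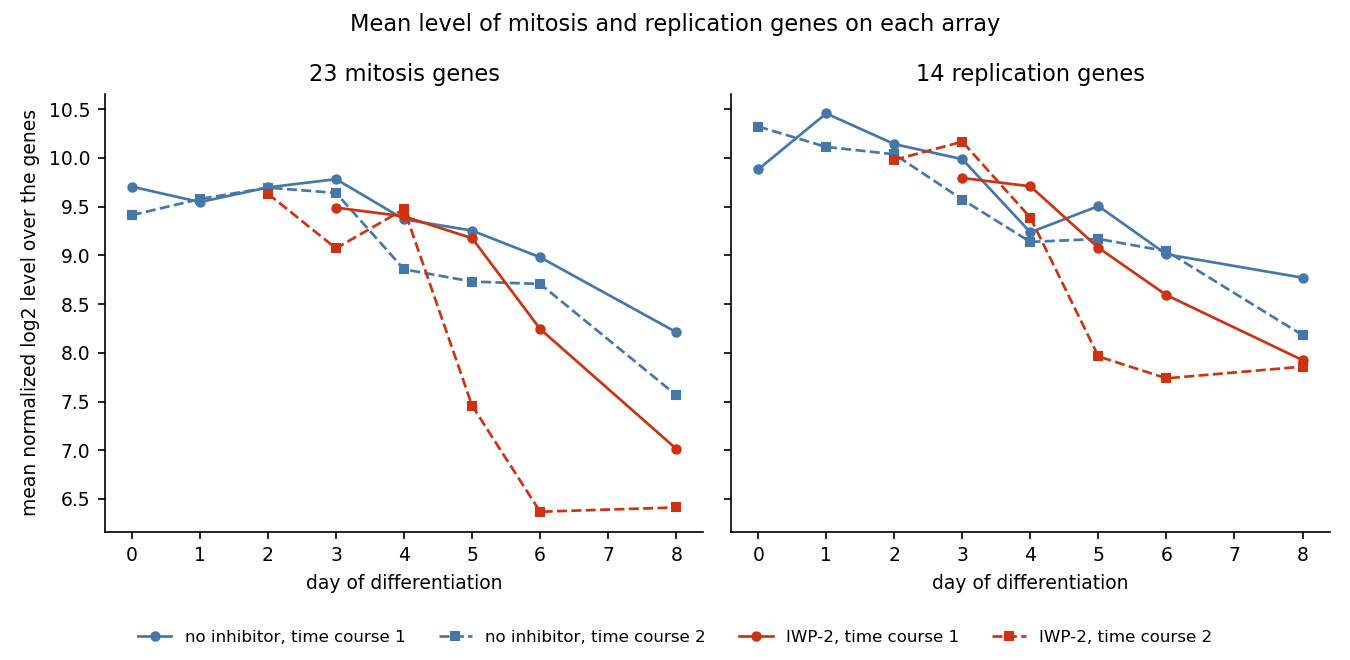
Mean normalized log2 level of the 23 mitosis genes (left) and of the 14 replication genes (right) against the day of differentiation. Each point is 1 array and each line joins the arrays of 1 arm in 1 time course. On day 6 with IWP-2 the mitosis mean is 8.24 in time course 1 and 6.37 in time course 2, against 8.98 and 8.71 without inhibitor.

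The replication genes that fell by days 3 and 4 were mostly helicase subunits. The 6 MCM proteins form the ring that unwinds DNA at the fork, and 4 of them fell. MCM5 measured 9.52 and 9.97 on day 0 and 9.24, 8.39, 8.85 and 8.30 on days 3 and 4. All 4 later arrays lay below both day 0 arrays. Its difference was −1.05 (SE 0.24, adjusted p = 0.00322). MCM4 fell by 0.89 (adjusted p = 0.00333), MCM6 by 0.70 (adjusted p = 0.0205) and MCM3 by 0.72 (adjusted p = 0.00139). MCM2 (−0.44, adjusted p = 0.306) and MCM7 (−0.52, adjusted p = 0.174) were not called, though a dimmer MCM7 probe detected on 26 of 27 arrays was called lower (−0.996, adjusted p = 0.0197). FEN1, the nuclease that trims Okazaki fragments, fell by 0.79 (adjusted p = 0.0154), and PCNA fell by 0.67 (adjusted p = 0.0333).

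Cyclin E1 (CCNE1), the partner of CDK2 at the start of S phase, fell as well, by 1.02 (adjusted p = 0.0262). A second CCNE1 probe was detected on 3 of 27 arrays and so does not bear on this. Cyclin D1 (CCND1), which couples growth signals to CDK4 and CDK6, fell by 1.31 (adjusted p = 0.0406). E2F1, a transcription factor of S phase genes, did not pass (−0.06, adjusted p = 0.89), nor did CCND2 (−0.23, adjusted p = 0.685) or CCND3 (0.40, adjusted p = 0.11). All 8 called genes were lower in both time courses, but the replication medians were −0.25 and −1.04. The count was 1 without the day 0 array of time course 2, and without day 4 of time course 1 it was 4, without day 3 of time course 2 it was 5, and with no time course block it was 5.

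The step from day 2 to day 4 was compared separately. Here 9 of the 42 genes fell and 1 rose, against 9.74% and 8.76% of all genes. MCM4 fell by 1.28 (adjusted p = 0.00122), MCM5 by 1.27, and MCM2, FEN1, MCM6 and MCM3 fell too. The spindle checkpoint kinase BUB1 fell by 1.14 (adjusted p = 0.011) and the centrosome kinase AURKA by 0.91 (adjusted p = 0.0204), the only mitosis genes called in this step. CCND1 fell by 2.01 (adjusted p = 0.0151) while CCND3 rose by 0.72 (adjusted p = 0.0277).

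By day 8 without inhibitor nearly the whole group lay below the stem cell level. Of the 42 genes 37 fell and 1, CCND3, rose, where 21.6% of all genes were called lower and 21.8% higher. Among the mitosis genes 22 of 23 fell, with a class median of −1.64, and among the replication genes 12 of 14, with a median of −1.66. The median over all genes was −0.01. Each of the 38 called genes kept its sign in either time course, with replication medians of −1.18 and −2.12. The count was 24 without the day 0 array of time course 2. Over the same days all 8 pluripotency markers fell, and 8 of 10 fibroblast and smooth muscle, 7 of 7 endothelial, 5 of 7 endoderm and 3 of 14 cardiomyocyte markers rose, whose part in the result was not tested.

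In mitosis the largest falls were those of BUB1, of AURKB, the kinase of the chromosomal passenger complex, of CDC20, which activates the anaphase promoting complex, and of cyclin A2 (CCNA2). BUB1 measured 10.39 and 9.40 on day 0 and 7.50 and 6.86 on day 8, a 6.57-fold fall (−2.72, SE 0.29, adjusted p = 2.07e-06). Both day 8 arrays lay below both day 0 arrays. AURKB fell by 2.26 (adjusted p = 0.00279), CDC20 by 2.15 (adjusted p = 0.000913) and CCNA2 by 2.06 (adjusted p = 0.0032). CDK1, the kinase that starts mitosis, fell by 1.28 (adjusted p = 0.0493). TOP2A, which untangles sister chromatids, was the mitosis gene that missed the test (−1.24, SE 0.54, adjusted p = 0.0752). The proliferation marker MKI67 fell by 0.58 (adjusted p = 0.0403), on a dim probe that measured 5.32 and 5.20 on day 0 and 4.64 and 4.72 on day 8.

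In replication the helicase again showed the largest falls. MCM5 measured 7.81 and 6.81 on day 8, a 5.39-fold fall from day 0 (−2.43, SE 0.28, adjusted p = 4.48e-06). MCM4 fell by 2.20 (adjusted p = 2.46e-06), the helicase activator CDC45 by 2.00 (adjusted p = 0.00345) and MCM2 by 1.84 (adjusted p = 0.000595). PCNA fell by 1.33 (adjusted p = 0.000728). RRM1, the large subunit of ribonucleotide reductase, was not called (−0.75, adjusted p = 0.062), nor was thymidylate synthase, TYMS (−0.996, adjusted p = 0.0611). CDC6, which helps to load the helicase, was detected on both day 0 arrays and on 0 of 2 on day 8, at least 1.90-fold lower there (adjusted p = 0.0143). Such a bound sets the brighter group against the lowest signal detected on the dimmer arrays.

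The D cyclins went separate ways over the same interval. CCND1 measured 10.40 and 11.25 on day 0 and 7.92 and 8.54 on day 8, a 6.05-fold fall (−2.60, SE 0.54, adjusted p = 0.000994). CCND3 measured 8.56 and 8.86 on day 0 and 9.90 and 10.15 on day 8, a 2.49-fold rise (1.32, SE 0.22, adjusted p = 0.000137). For both genes the day 8 arrays stood apart from the day 0 arrays. CCND2 measured 11.35 and 11.44, then 11.92 and 12.08, and was not called (0.61, SE 0.44, adjusted p = 0.287). E2F1 fell by 0.78 (adjusted p = 0.0456), by 0.10 in time course 1 and by 1.46 in time course 2. CCNE1 fell by 1.06 (adjusted p = 0.0342), with 0.33 and 1.81 in the time courses. With arrays weighted by their quality the day 8 calls of CDK1, MKI67, E2F1 and CCNE1 and the earlier call of CCND1 were lost.

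**Figure D2:**
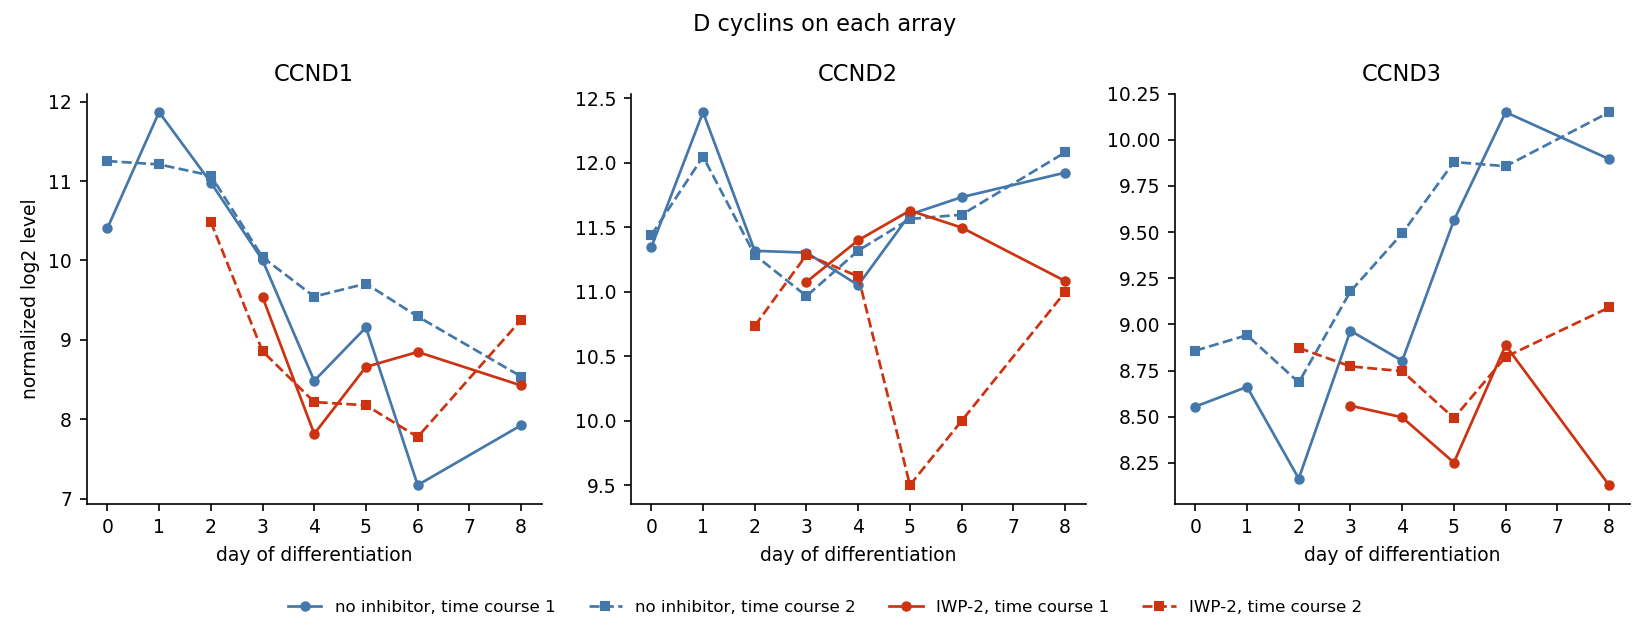
Normalized log2 level of CCND1, CCND2 and CCND3 on each array against the day of differentiation, 1 panel per gene, with lines joining the arrays of 1 arm in 1 time course. Without inhibitor CCND3 reaches 9.90 and 10.15 on day 8, and with IWP-2 it is at 8.13 and 9.09, while CCND1 falls in both arms.

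Split at the middle of the experiment, the arm without inhibitor showed a moderate late fall. From days 3 and 4 to days 6 and 8, 32 of the 42 genes fell and CCND3 rose, against 12.5% of all genes called lower and 13.2% called higher. Mitosis genes accounted for 20 of them (class median −1.04) and replication genes for 10 (median −0.71), beside a median of 0.00 over all genes. BUB1 fell by 1.56 (adjusted p = 4.71e-05), AURKB by 1.32, the microtubule depolymerase KIF2C by 1.28 and the centromeric histone CENPA by 1.27. MCM2 and MCM5 each fell by 1.00, CDC45 by 0.98 and MCM4 by 0.91. CCND1 fell by 1.29 (adjusted p = 0.0206), E2F1 by 0.61 (adjusted p = 0.0464), and CCND3 rose by 0.90 (adjusted p = 0.000455). CCND2 (0.67, adjusted p = 0.129) and CCNE1 (0.20, adjusted p = 0.639) did not pass. With days averaged within each time course, since they are not independent cultures, calls over all genes went from 3483 to 2383. The 33 calls became 17 with no time course block, 16 without day 6 of time course 1, 19 without day 3, 20 without day 4 and 20 without day 8 of time course 2.

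With IWP-2 the late fall took in all mitosis genes. From days 3 and 4 to days 6 and 8 in this arm 37 of the 42 genes fell and 0 rose, against 18.7% and 17.6% of all genes. All 23 mitosis genes were among them (median −2.49), and 13 of 14 replication genes (median −1.75), where all genes had a median of −0.02. AURKB fell by 2.91 (adjusted p = 2.16e-05). Close to it were TOP2A with −2.85, the apoptosis inhibitor and passenger protein BIRC5 with −2.85, and UBE2C, the ubiquitin-conjugating enzyme of mitotic exit, with −2.83. CDC45 fell by 2.62 (adjusted p = 2.42e-05). The next replication genes were MCM2 with −2.34, RRM2, the small subunit of ribonucleotide reductase, with −2.27 though below detection on 3 of the 4 later arrays, and FEN1 with −2.12. MKI67 was detected on 4 of 4 arrays of days 3 and 4 and on 0 of 4 of days 6 and 8, at least 1.29-fold lower (adjusted p = 0.000291). CDC6, detected on 0 of the 4 later arrays, was not called (adjusted p = 0.1). CCNE1 fell by 0.76 (adjusted p = 0.0392), and E2F1 did not pass (−0.50, adjusted p = 0.0808). The D cyclins did not pass, with −0.03 for CCND1, −0.33 for CCND2 and 0.09 for CCND3. Averaging the days within each time course took the calls over all genes for this late fall from 4915 to 1934. By day 8 of this arm 38 of the 42 genes had fallen from day 0 (22.5% of all genes were called lower), including all 23 mitosis genes. From days 3 and 4 to days 6 and 8 in this arm all 14 cardiomyocyte markers rose (median 4.05) and 7 of 8 pluripotency markers fell, and their part in the result was not tested.

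The next question is how the arms compared on the same days. On days 3 and 4, IWP-2 against no inhibitor gave 0 calls among the 42 genes, where 4.37% of all genes were called, and 4 of the 42 had an unadjusted p below 0.05 in limma. The mitosis median was −0.07 and the replication median 0.30, beside 0.02 over all genes. In time courses 1 and 2 the replication medians were 0.12 and 0.43. The nearest to a call were MCM3 (0.38, SE 0.12, adjusted p = 0.101), CCND3 (−0.47, SE 0.15, adjusted p = 0.11), MCM4 (0.45, SE 0.17, adjusted p = 0.175) and CCND1 (−0.91, SE 0.38, adjusted p = 0.234). Taken by day, the replication medians in these time courses were −0.14 and 0.61 on day 3 and 0.47 and 0.28 on day 4. The mitosis medians were −0.29 and −0.61 on day 3 and 0.03 and 0.64 on day 4. On these days 0 of the 42 genes were called, against 1.09% and 3.1% of all genes, with 1 and 3 at an unadjusted p below 0.05 in limma.

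On day 5 the arms differed in 4 replication genes and CCND3. In all, 5 of the 42 genes were lower with IWP-2, against 4.86% of all genes. PCNA had a difference of −1.17 (SE 0.27, adjusted p = 0.0103), MCM5 had −1.03 (adjusted p = 0.0279), MCM6 −0.85 (adjusted p = 0.0419), MCM4 −0.82 (adjusted p = 0.0377) and CCND3 −1.35 (SE 0.22, adjusted p = 0.000841). PCNA is given here on its brightest probe, and a dimmer one went the other way on days 6 and 8 together. Mitosis genes gave 0 calls on day 5 in limma, with 1 at an unadjusted p below 0.05. The differences in their mean level were −0.08 and −1.27, so the time courses stood apart on that day. On day 6, 26 genes were lower with IWP-2 (7.93% of all genes): 20 mitosis genes from −0.97 to −2.35, 5 replication genes and CCND3. On day 8, 16 were lower (12.8% of all genes): 12 mitosis genes from −1.10 to −1.81, 3 replication genes (PCNA, FEN1 and the GINS subunit GINS2) and CCND3.

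**Figure D3:**
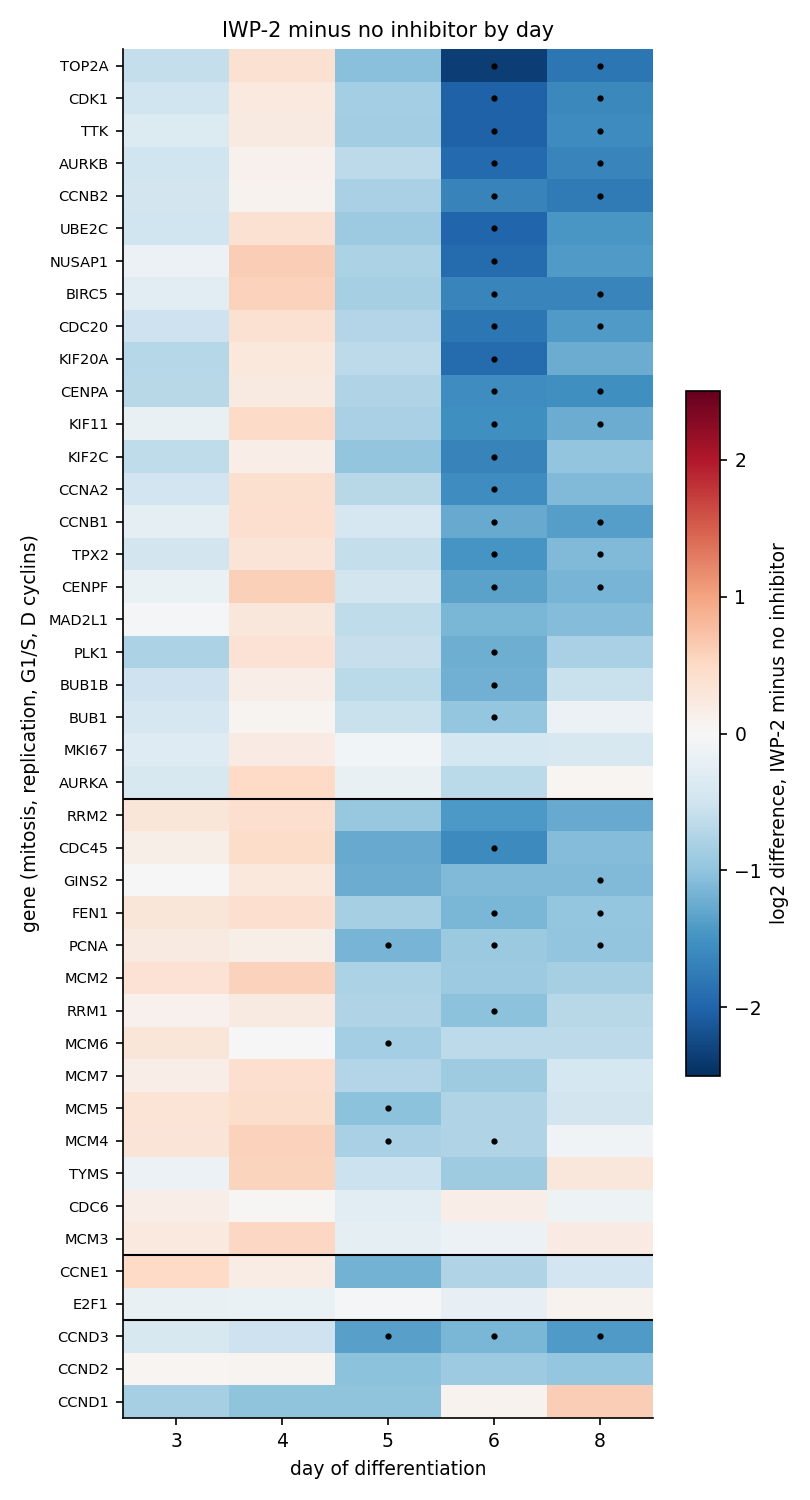
Log2 difference between IWP-2 and no inhibitor for each of the 42 tested genes (rows, grouped as mitosis, replication, G1/S and D cyclins) on each day (columns). Blue is lower with IWP-2, red higher, and a dot marks an adjusted p below 0.05. The dots begin on day 5 with 4 replication genes and CCND3, and on day 6 they cover 20 of the 23 mitosis genes.

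Days 6 and 8 were also compared together, 4 arrays against 4. With IWP-2, 34 of the 42 genes were lower and 0 higher, against 18.1% and 17% of all genes. Mitosis genes gave 22 of the calls (class median −1.39), replication genes 10 (median −0.76) and D cyclins 2, and the median over all genes was −0.02. All 34 were lower in both time courses. The mitosis medians of time courses 1 and 2 were −1.03 and −1.96, and the replication medians −0.65 and −0.82. Days of 1 time course are not independent cultures, and with them averaged within each time course the count was 20.

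TOP2A had the largest difference. It measured 11.32 and 10.45 on days 6 and 8 without inhibitor and 10.20 and 8.67 with IWP-2 in time course 1. In time course 2 it measured 10.63 and 9.31 without inhibitor and 7.06 and 7.48 with IWP-2. Each IWP-2 array lay below its own time course and day, though over all 8 arrays the groups overlapped at the IWP-2 array of day 6 in time course 1. The difference was −2.08 (SE 0.38, adjusted p = 0.000478), a 4.22-fold lower level with IWP-2.

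CDK1 showed the same order of arrays. It measured 9.76 and 9.08 without inhibitor and 8.82 and 7.47 with IWP-2 in time course 1, and 9.72 and 8.79 against 6.62 and 7.18 in time course 2. Again only the IWP-2 array of day 6 in time course 1 reached the range of the arm without inhibitor. CDK1 was 3.52-fold lower (−1.82, SE 0.36, adjusted p = 0.00081). The spindle checkpoint kinase TTK was 3.48-fold lower (−1.80, SE 0.31, adjusted p = 0.000243) and AURKB 3.46-fold lower (−1.79, SE 0.38, adjusted p = 0.00152).

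The remaining mitosis genes are given by role. The cyclins differed by −1.72 (CCNB2), −1.32 (CCNB1) and −1.32 (CCNA2). The spindle motors KIF11 and KIF20A, and KIF2C, differed by −1.39, −1.58 and −1.33, and the spindle proteins NUSAP1 and TPX2 by −1.67 and −1.29. Centromere proteins CENPA and CENPF had −1.54 and −1.25. Of the checkpoint proteins MAD2L1 had −1.11, BUB1B −0.89 and BUB1 −0.56, the smallest called difference on a probe detected in both arms (adjusted p = 0.0434). The degradation factors CDC20 and UBE2C had −1.61 and −1.72, the latter with a second probe at −0.34 that was not called (adjusted p = 0.2). PLK1, a kinase of mitotic entry, had −1.02 and BIRC5 −1.65. AURKA was the 1 mitosis gene not called (−0.31, SE 0.18, adjusted p = 0.207), its 4 IWP-2 arrays between 8.44 and 9.55 and those without inhibitor between 8.39 and 9.97. MKI67 was called (adjusted p = 0.0444), but was detected on 0 of 4 IWP-2 arrays (mean 4.37) and 3 of 4 others (mean 4.79), too dim for a fold.

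Among the replication genes RRM2 had a difference of −1.35 (SE 0.35, adjusted p = 0.00608), with 6.49 and 6.15 against 5.99 and 4.93 in time course 1 and 7.03 and 5.76 against 4.66 and 4.45 in time course 2. The IWP-2 arrays were lower on each day, but 3 of the 4 were below detection, so the size of the difference rests partly on background. CDC45 was 2.53-fold lower (−1.34, SE 0.35, adjusted p = 0.00648), GINS2 had −1.10 (adjusted p = 0.00493), FEN1 −1.05 (adjusted p = 0.000441), RRM1 −0.86 (adjusted p = 0.00615) and MCM2 −0.87 (adjusted p = 0.0138).

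PCNA separated the arms on its main probe. It measured 10.34, 10.36, 10.01 and 9.65 without inhibitor and 9.57, 9.05, 8.91 and 8.98 with IWP-2. All 4 IWP-2 arrays lay below all 4 others, which held for 1 of the 37 mitosis and replication genes, PCNA, and for 12% of all genes tested. The difference was −0.96 (SE 0.19, adjusted p = 0.000863). A second, dimmer PCNA probe went the other way (0.41, adjusted p = 0.037), so the direction for PCNA depends on the probe.

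Of the 6 helicase subunits 4 were lower with IWP-2, MCM2 among them. MCM6 (−0.66, adjusted p = 0.00834), MCM7 (−0.66, adjusted p = 0.0363) and MCM5 (−0.61, adjusted p = 0.025) were the others. Of 2 dimmer MCM7 probes, that detected on 26 of 27 arrays gave −0.71 (adjusted p = 0.0385) and that detected on 3 arrays gave −0.09 and was not called. MCM4 (−0.42, SE 0.17, adjusted p = 0.0669) and MCM3 (0.04, SE 0.12, adjusted p = 0.865) were not called. MCM3 measured 11.27, 11.11, 11.27 and 10.55 without inhibitor and 11.22, 11.08, 11.04 and 11.01 with IWP-2, within the same range. TYMS did not pass (−0.31, adjusted p = 0.458), and CDC6 was detected on none of the 8 arrays. Of the G1/S genes CCNE1 (−0.61, SE 0.27, adjusted p = 0.0954) and E2F1 (−0.06, SE 0.21, adjusted p = 0.857) did not pass.

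Cyclin D3 had the smallest adjusted p of the 42 genes. CCND3 measured 10.15, 9.90, 9.86 and 10.15 without inhibitor on days 6 and 8 and 8.89, 8.13, 8.82 and 9.09 with IWP-2, so the groups did not overlap. The difference was −1.28 (SE 0.15, adjusted p = 9.17e-06), a 2.43-fold lower level. CCND2 measured 11.73, 11.92, 11.60 and 12.08 without inhibitor and 11.50, 11.08, 10.00 and 11.00 with IWP-2, again without overlap. Its difference was −0.94 (SE 0.31, adjusted p = 0.0271), and a second probe gave −1.001 and was not called (adjusted p = 0.0808). CCND1 did not pass (0.34, SE 0.38, adjusted p = 0.539), with 1.09 in time course 1 and −0.40 in time course 2.

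**Figure D4:**
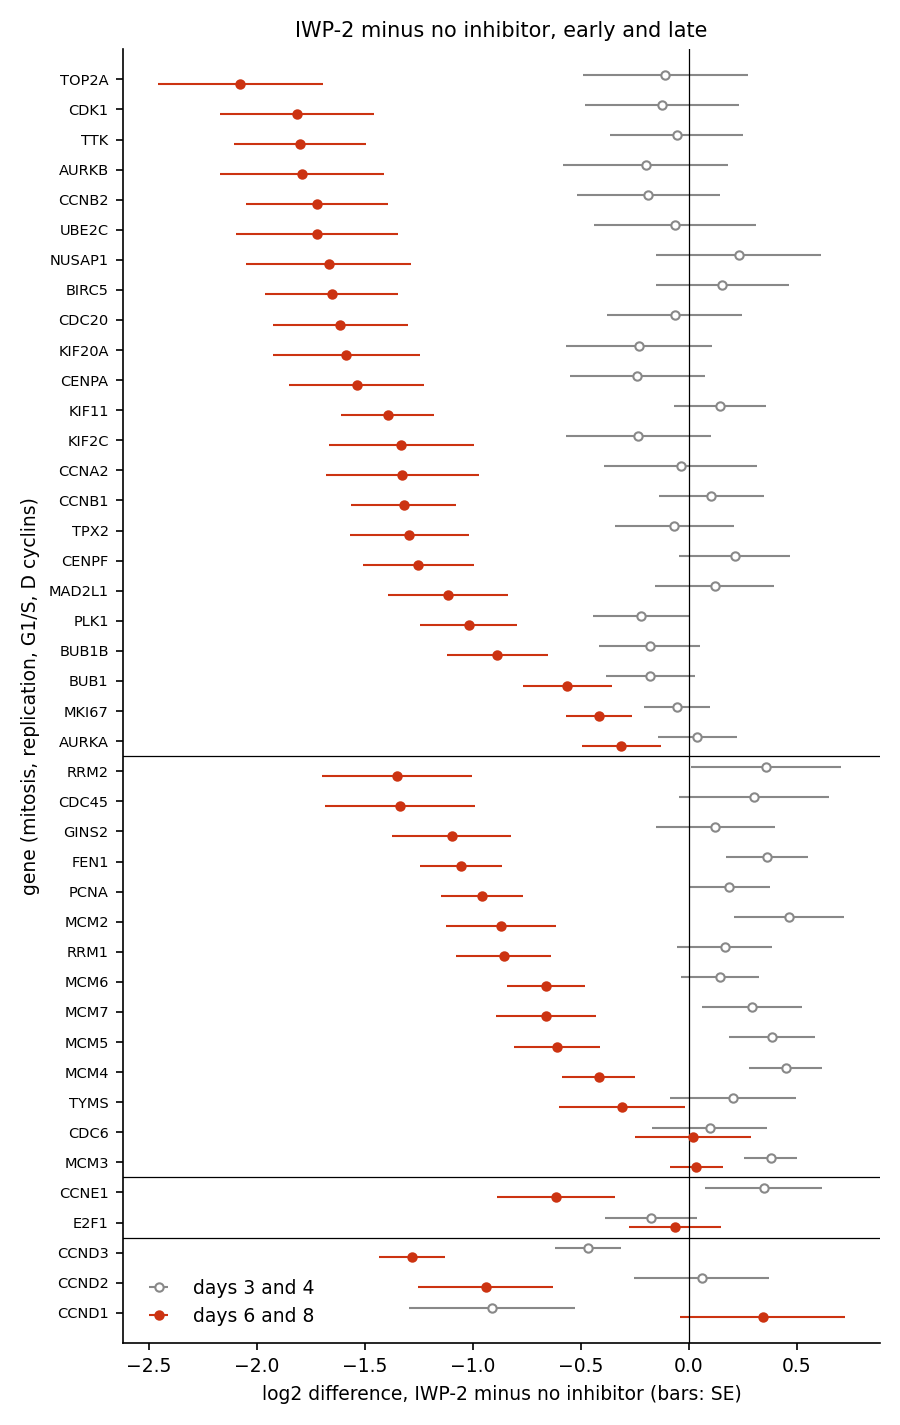
Log2 difference between IWP-2 and no inhibitor for each tested gene on days 3 and 4 (open grey points) and on days 6 and 8 (filled red points), with SE bars. The early points lie between −0.91 for CCND1 and 0.46 for MCM2. The late points reach −2.08 for TOP2A among mitosis genes and, among replication genes, −1.35 for RRM2, partly below detection, and −1.34 for CDC45.

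Markers of cell types were counted between the arms on days 6 and 8, where 18.1% of all genes were lower with IWP-2 and 17% higher. All 14 cardiomyocyte markers were higher with IWP-2 (median 4.33), all 14 were detected on each of the 4 arrays, and their summed level was 61201 to 101972. Without inhibitor the sum was 3496 to 5256, 6 to 8 markers were detected, and the myosin heavy chain MYH7 was on none of the 4 arrays. Of 10 fibroblast and smooth muscle markers 7 were lower with IWP-2 and 3, the smooth muscle genes ACTA2, CNN1 and TAGLN, higher, with sums of 16835 to 22853 (7 to 8 detected) against 44713 to 62093 (10 detected). Endothelial markers were lower for 2 of 7, with sums of 489 to 1876 against 1928 to 3461, and 5 to 7 detected against all 7. Endoderm markers were lower for 4 of 7, with sums of 270 to 1037 against 874 to 8929, and 1 to 6 detected against all 7. Pluripotency markers were lower for 4 of 8, with sums of 780 to 4199 against 1787 to 4232. POU5F1, SOX2 and NANOG were undetected on all 4 IWP-2 arrays, and SOX2 and NANOG on all 4 others. On day 5 the cardiomyocyte sum was already 45054 to 95998 with IWP-2 and 4797 to 6434 without. On days 3 and 4 it was 1584 to 34258 with IWP-2 and 1450 to 7201 without. From day 4 on, the cardiomyocyte sum is set beside the difference in mean mitosis level, with 1 array per arm in each pair. On day 4 of time course 1 the sums were 7205 with IWP-2 and 6393 without, and the mitosis difference was 0.03. On day 5 of time course 1 the sum was 45054 with IWP-2 and 6434 without, and the mean mitosis level differed by −0.08. On day 5 of time course 2 the sums were 95998 and 4797, and the mitosis difference was −1.27. On day 4 of time course 2 they were 34258 and 7201, and the mitosis mean was 0.62 higher with IWP-2. On day 6 of time course 1 they were 61201 and 3644, and the mitosis difference was −0.74. In time course 2 on day 6 they were 101972 and 5256, with −2.34. On day 8 they were 78770 and 4040 in time course 1, with −1.20, and 92162 and 3496 in time course 2, with −1.15. The part of the markers in the result was not tested.

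Whether the late difference was itself larger than the early one was tested as an interaction of inhibitor and period. The difference between the arms moved down for 24 of the 42 genes and up for 0, against 9.2% and 9.11% of all genes. These were 13 mitosis genes (class median −1.43), 10 replication genes (median −1.01) and CCND3, and the median over all genes was −0.05. TOP2A changed by −1.97 (SE 0.54, adjusted p = 0.0184), NUSAP1 by −1.90 (adjusted p = 0.0218), BIRC5 by −1.81 (adjusted p = 0.00907) and TTK by −1.74 (adjusted p = 0.0106). Among replication genes RRM2, below detection on 3 of the 4 late IWP-2 arrays, changed by −1.71 (adjusted p = 0.0233), CDC45 by −1.64 (adjusted p = 0.0285), FEN1 by −1.42 (adjusted p = 0.0021) and MCM2 by −1.33 (adjusted p = 0.0171). PCNA changed by −1.15 (adjusted p = 0.00735), with 0.37 on its second probe. BUB1 (−0.38, adjusted p = 0.399) and AURKA (−0.35, adjusted p = 0.382) were not called.

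Among the D cyclins CCND3 passed this interaction (−0.81, SE 0.22, adjusted p = 0.0159). CCND2 (−0.999, adjusted p = 0.131) and CCND1 (1.25, adjusted p = 0.122) did not. Each of the 24 calls kept its sign in either time course. The count was 10 with no time course block. It was 12 without day 3, 9 without day 4 and 15 without day 8 of time course 1 in the arm without inhibitor, and 11 without day 6 of time course 2 in that arm. It was 11 without day 3, 12 without day 4 and 9 without day 6 of time course 2 with IWP-2.

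The time courses differ in when IWP-2 was given, and the difference between the arms on days 5, 6 and 8 was compared between them. The window and the time course cannot be told apart, since each window was used in 1 time course. The difference was more negative in time course 2 for 6 of the 42 genes and less negative for 0, against 3.16% and 2.26% of all genes, and 21 had an unadjusted p below 0.05. All 6 are mitosis genes (class median −1.06). CCNA2 differed by −0.35 in time course 1 and by −1.88 in time course 2, a change of −1.52 (SE 0.37, adjusted p = 0.0332). CCNB2 differed by −0.78 and −2.06 (change −1.29, SE 0.28, adjusted p = 0.0198). NUSAP1 and KIF20A each had a change of −1.30, TPX2 of −1.21 and CENPA of −1.20, with a second CENPA probe at −0.78 that was not called (adjusted p = 0.261).

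For the other classes the windows gave 0 calls. The replication median was −0.39, beside 0.00 over all genes. PCNA differed by −1.04 and −1.01 in the time courses (change 0.03, SE 0.30, adjusted p = 0.969), and CCND3 by −1.45 and −1.16 (change 0.29, SE 0.26, adjusted p = 0.588). A second PCNA probe gave a change of 0.35 and was not called (adjusted p = 0.384). The count of 6 rests on single arrays. It was 0 without day 5 with IWP-2, 0 without day 6 with IWP-2 and 23 without day 8 with IWP-2, and in the arm without inhibitor it was 1, 0 and 2 without days 5, 6 and 8, whichever time course lost its array. Day 8 of time course 2 with IWP-2 is also the array with the lowest mean signal.

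Further genes of the same pathways, outside the 43, were counted in the same fit. Their lists were also chosen with earlier results of these data known, and they were read on the same arrays, so they are no independent check. Of 42 other mitosis genes 37 fell from day 0 to day 8 without inhibitor, 40 fell from days 3 and 4 to days 6 and 8 with IWP-2, and on days 6 and 8 with IWP-2 38 were lower and 1, the condensin subunit SMC2, higher (median −1.13). The largest of these differences were −1.96 for NEK2, a centrosome kinase, −1.85 for the spindle protein DLGAP5, −1.75 for ASPM, a spindle pole protein, and −1.74 for the condensin subunit NCAPG. All genes gave 21.6%, 18.7%, and 18.1% lower with 17% higher in these comparisons. Of 38 other replication genes tested 9 had fallen by days 3 and 4, beside 17.2% of all genes, among them GINS4 (−1.21) and the clamp loader component DSCC1 (−1.20), where 0 of the 42 other mitosis genes were called in limma and 0 had an unadjusted p below 0.05. On days 6 and 8, 18 of the 38 were lower with IWP-2 and 0 higher (median −0.43, all genes 18.1% and 17%). CDC7, the kinase that fires origins, had −1.79, the maintenance methylation cofactor UHRF1 −1.63, the primase subunit PRIM1 −1.45 and MCM10, which joins the helicase at origins, −1.38.

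**Figure D5:**
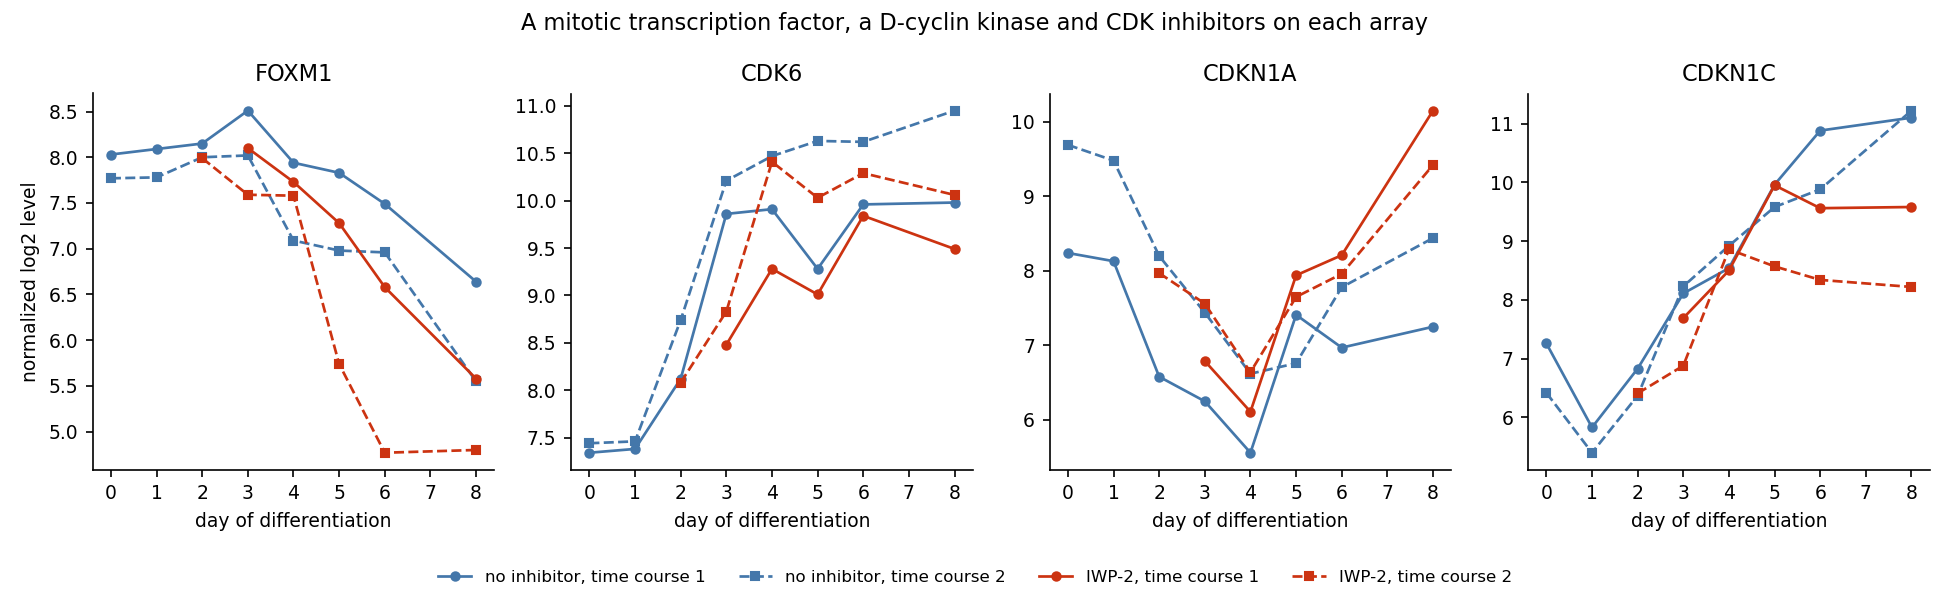
Normalized log2 level of FOXM1, CDK6, CDKN1A and CDKN1C on each array against the day of differentiation, with lines joining the arrays of 1 arm in 1 time course. FOXM1 ends at 5.58 and 4.80 with IWP-2 and at 6.64 and 5.55 without, and CDKN1C ends at 9.58 and 8.22 with IWP-2 and at 11.10 and 11.22 without.

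Of 25 regulators, transcription factors and kinases, 7 were lower and 3 higher with IWP-2 on days 6 and 8, beside 18.1% and 17% of all genes. FOXM1, the activator of mitosis genes, was lower (−1.23, SE 0.23, adjusted p = 0.000642). It measured 7.49, 6.64, 6.96 and 5.55 without inhibitor and 6.58, 5.58, 4.77 and 4.80 with IWP-2, lower on each day of each time course but with overlapping ranges, and it was below detection on 2 of the 4 IWP-2 arrays. E2F2 had −1.26 (adjusted p = 0.00535), the repressor E2F7 −1.03 (detected on 2 of the 4 IWP-2 arrays) and SKP2, which marks the inhibitor p27 for degradation, −1.02. The 3 that were higher were E2F3 (0.71), E2F6 (0.28) and E2F8, which was at background in both arms (detected on 1 of 4 IWP-2 arrays and 0 of 4 others). CDK2 (−0.49, adjusted p = 0.0177) and CDK4 (−0.55, adjusted p = 0.00802), the kinases of cyclin E and the D cyclins, were lower as well. MYBL2, which encodes B-MYB and was detected on 12 arrays, was not called (−0.22, adjusted p = 0.32), nor was MYCN (−0.13, adjusted p = 0.806), which had fallen by 1.64 from day 0 to day 8 without inhibitor (adjusted p = 0.00721).

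CDK6, a partner of the D cyclins, measured 7.34 and 7.44 on day 0 and, without inhibitor, 9.98 and 10.95 on day 8, a rise (3.08, adjusted p = 1.66e-07). Both day 8 arrays lay above both day 0 arrays. On days 3 and 4 CDK6 was lower with IWP-2 (−0.87, adjusted p = 0.0107), the 1 regulator of 25 called then, and on days 6 and 8 it was not called (−0.46, adjusted p = 0.0639).

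CDK inhibitors also differed between the arms. CDKN1C, which encodes p57, measured 7.26 and 6.42 on day 0 and 11.10 and 11.22 on day 8 without inhibitor (4.32, adjusted p = 4.29e-07). It was lower with IWP-2 on days 6 and 8 (−1.85, SE 0.28, adjusted p = 9.41e-05). CDKN1A, which encodes p21, went the other way: it measured 6.97, 7.25, 7.78 and 8.44 without inhibitor and 8.21, 10.15, 7.96 and 9.42 with IWP-2, higher on each day but with overlapping ranges (1.32, adjusted p = 0.00907). CDKN1B, which encodes p27, had risen by day 8 without inhibitor (1.23, adjusted p = 0.00136) and was not called between the arms (0.27, adjusted p = 0.299). Of 6 other targets of p53 that were tested, GADD45A (1.49, adjusted p = 0.00249) and SESN1 (0.42, adjusted p = 0.0319) were higher with IWP-2 and TP53I3 was lower (−0.90, adjusted p = 0.00708).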

How the data were processed

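Total RNA was biotin labelled and hybridised to Illumina bead arrays, 1 per sample, 27 in all. The deposited table holds scanner intensity values, not normalized, with a detection p-value per probe, per the file headers, and the submitters' processing notes name GenomeStudio. A second deposited table gives the authors' processed intensities, with medians of 6.88 (time course 1) and 4.63 (time course 2). Values below 10 were raised to 10 before the log2 was taken, and the median of each array lay below that floor. The table's probes rank as in the scanner signal (rank correlation 1), its centring is unknown, and it served as an alternative only.

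Intensities were corrected for background with the detection p-values (limma 3.58.1, R 4.3.3, offset 16), quantile normalized and put on the log2 scale. Of 47323 probes 30113 had 1 gene in the platform annotation, and 23933 probes were detected (p below 0.01) on at least 2 arrays. The brightest probe by mean signal stood for a gene. One linear model over all 27 arrays had 1 term for each day within an arm and a block for time course (12 residual degrees of freedom), with limma's moderated test and Benjamini-Hochberg adjustment over 13534 genes. The window comparison used time course, period and arm as interacting terms.

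The labels number the time courses, and arrays of 1 course deviated together in 78 of 78 pairs of groups (correlations 0.124 to 0.803), so the block was kept. No arrays held identical values. Array number limits the precision. Where 1 group was below background, at least N-fold sets the bright group's mean against the lowest detected signal of the dim arrays. The fit was tested on simulated data, where small changes were mostly missed, so a gene that was not called may still have changed.

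All 43 genes are described, and per comparison and class up to 4 called genes with the largest differences in each direction get values, with the D cyclins, E2F1, CCNE1, MKI67, TOP2A, CDK1, PCNA, MCM2 and 9 regulators fixed. Genes named beyond this rule were chosen after their values were seen. The genes and lists were chosen with earlier results of these data known. Alternatives were other background, scaling, filter, probe, block and weight settings and leaving out each array.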

Additional observations from a re-analysis of the deposited data

Results flagged for a closer look

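Results are listed here where a test of the difference between effects passed, that is, where the difference between IWP-2 and no inhibitor was not the same in both periods or in both time courses. Between days 3 and 4 and days 6 and 8 the difference moved by −1.97 for TOP2A, −1.90 for NUSAP1, −1.81 for BIRC5, −1.74 for TTK, −1.69 for CDK1, −1.65 for UBE2C, −1.55 for CDC20, −1.54 for KIF11, −1.54 for CCNB2, −1.47 for CENPF, −1.43 for CCNB1, −1.23 for MAD2L1 and −1.23 for TPX2, all of mitosis. For UBE2C, CDK1 and MAD2L1 a second probe was not called. Replication genes moved by −1.71 for RRM2 (3 of 4 late IWP-2 arrays below detection), −1.64 for CDC45, −1.42 for FEN1, −1.33 for MCM2, −1.22 for GINS2, −1.15 for PCNA, −1.02 for RRM1, −0.99 for MCM5, −0.87 for MCM4 and −0.81 for MCM6. The second PCNA probe went the other way (0.37) and was not called. CCND3 moved by −0.81, FOXM1 by −1.09 (2 of 4 late IWP-2 arrays below detection) and CDKN1C by −1.38. Between the time courses the difference over days 5, 6 and 8 moved by −1.52 for CCNA2, −1.30 for NUSAP1, −1.30 for KIF20A, −1.29 for CCNB2, −1.21 for TPX2 and −1.20 for CENPA. A second CENPA probe gave −0.78 and was not called.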

How the results depend on the processing

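Of 6720 values of single genes under the alternatives 6104 kept their direction and their side of the threshold, 514 lost the call, 102 gained it and 0 reversed. Without the block that pairs arrays by time course the calls among the 42 genes went from 8 to 5 (days 3 and 4 against day 0), 33 to 17 (days 6 and 8 against days 3 and 4, no inhibitor) and 24 to 10 (interaction with period). They went from 38 to 31 on day 8 against day 0 and from 34 to 29 between the arms on days 6 and 8. With days averaged within each time course the last count was 20. The 6 calls of the window comparison became 1 with no background correction, 1 with no detection filter and 1 with array weights, and array weights gave 2 calls between the arms on days 3 and 4, where the count was 0. Leaving out 1 array at a time gave 1 to 9 calls for days 3 and 4 against day 0, 24 to 35 for day 8 against day 0, 16 to 29 and 36 to 38 for the late fall without inhibitor and with IWP-2, 0 to 1 and 25 to 34 between the arms early and late, 9 to 32 for the interaction and 0 to 23 for the windows. The cause was not tested. No fit without the block or with days averaged could be made for the windows. Scaling on the median moved the median of all genes by −0.14 (day 8 against day 0) and 0.128 (windows), and the share of calls that were higher from 51.4% to 39.9% (days 6 and 8 against days 3 and 4, no inhibitor) and from 41.7% to 59.1% (windows). Over all genes tested, no block gave 203 calls for 375 (day 1 against day 0), 350 for 592 (arms, days 3 and 4) and 1462 for 2478 (interaction). Array weights gave 229 for 375, 1102 for 592 and 451 for 733 (windows), and days averaged 1653 for 4745 (arms, days 6 and 8), 1934 for 4915 (late fall with IWP-2) and 1482 for 2478.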
